A study of Homo sapiens with 4 samples.

Results

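The semaphorins, plexins, ephrins, Eph receptors, Slits and Robo receptors were examined in libraries labelled as A549, an established human lung adenocarcinoma line, after the surface receptor DCBLD2 had been manipulated. Members were picked by a rule on gene symbols, and 59 of the 57905 deposited entries matched: 20 semaphorins, 9 plexins, 14 Eph receptors, 9 ephrins, 4 Robo receptors and 3 Slit ligands. They carry 58 symbols, because EFNA3 stands on 2 entries. RNA was sequenced from 4 libraries, 1 per condition: a scramble control (sc), the DCBLD2 knockdown line shDCBLD2, an empty vector control (vector) and a line labelled DCBLD2 overexpression. The labels give A549 as the cell line of all 4, and lentivirus was used to make the lines. The study's methods describe the DCBLD2 coding sequence driven by an EF1 promoter under blasticidin selection, and hairpins under an H1 promoter with a puromycin marker. The deposited counts summed to 19104052 in sc, 21537283 in shDCBLD2, 18718562 in vector, beside 16601633 in the library labelled DCBLD2 overexpression. No condition has a replicate, so every difference compares these libraries, not the conditions, and has no replicate check.

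Guidance molecules were first described as the cues that steer growing axons, and the same ligands and receptors control adhesion, spreading and migration of epithelial and tumor cells. Semaphorins signal through plexins. The secreted class 3 semaphorins mostly need a neuropilin co-receptor, and SEMA3B and SEMA3F are known as candidate tumor suppressors of the short arm of chromosome 3 in lung cancer. Ephrins are membrane-bound ligands of the Eph receptor tyrosine kinases and can signal in both contacting cells, whereas the secreted Slits act on Robo receptors and often repel. DCBLD2 itself shares its CUB and coagulation factor domains with the neuropilins and is a known binding partner of SEMA4B.

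DCBLD2 was read first in each library. Its deposited count was 9859 in sc and 4259 in shDCBLD2, and the log2 ratio of scaled counts was -1.35 (95% interval -1.40 to -1.30), or 2.55-fold lower in the knockdown. The vector library held 7970 counts and the library labelled DCBLD2 overexpression held 4000, with the ratio at -0.84 (-0.90 to -0.79). DCBLD2 was therefore not higher but 1.79-fold lower in the library labelled for its overexpression, against the label. Every direction given below for that library rests on a library whose label the target gene goes against. The short name overexpression comparison, used below, refers to the label alone. Log2 ratios use counts scaled by TMM factors with a prior count of 2, and the intervals are exact Clopper-Pearson intervals that cover counting error only.

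Marker lists were read for the A549 identity of the libraries. All 10 genes abundant in A549 (among them KRT8, KRT18, ALDH1A1, ALDH3A1 and AKR1B10) were above 3 counts in each library, with summed levels of 35800 CPM in sc, 22200 in shDCBLD2, 29100 in vector, beside 32300 in the library labelled DCBLD2 overexpression. Of the 3 genes at 9p21, a segment known to be deleted in A549, CDKN2A had 0 counts in sc, shDCBLD2 and vector but 2104 counts in the library labelled DCBLD2 overexpression. CDKN2B had 0 counts in the first 3 libraries and 7 in that one, and MTAP had 9, 33, 11 and 104 counts in sc, shDCBLD2, vector and that library. The summed level of the 3 genes was 0.46, 1.53, 0.599 and 134 CPM in the same order, and CDKN2A was the most abundant in the last. The library labelled DCBLD2 overexpression thus stood apart from the other 3 at a locus that A549 lacks. Its cell identity and its label were not settled here, which limits what every ratio between it and vector means. Whether it was exchanged with another library or held other cells was not tested. For A549 cells overexpressing DCBLD2, the paper reports more migration and metastasis, and enriched epithelial-mesenchymal transition signatures by RNA sequencing against empty vector. In all, 301 genes, CDKN2A among them, had 10 or more counts in it and 3 or fewer in each other library, against 11 such genes for sc, 32 for shDCBLD2 and 9 for vector.

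Markers of other cell types were read in the same way. Of 10 fibroblast genes, 6 in sc, 5 in shDCBLD2, 5 in vector, beside 8 in the library labelled DCBLD2 overexpression were above 3 counts, and their summed levels were 38.2, 59.4, 45.5 and 82.3 CPM, with COL1A1 the most abundant in each. Of the 4 that passed the filter, COL1A2 and COL3A1 were called higher than vector in the library labelled DCBLD2 overexpression, with 0 and 67 counts and with 6 and 68 counts in the pair. POSTN, which did not pass, had 0 and 42. COL1A2 and COL3A1 passed the filter only through their counts in that library. FAP was at 0 in all 4, and DCN, LUM and POSTN were at 0 in sc, shDCBLD2 and vector. Neural genes summed to 121, 128, 137 and 184 CPM with 8, 9, 7 and 8 of 10 above 3 counts. Their most abundant gene was TUBB3 in sc and shDCBLD2, SNAP25 in vector and RBFOX3 in the library labelled DCBLD2 overexpression, and STMN2 was at 0 throughout. Of the 8 neural genes that passed, 4 were called higher than vector there (SYT1, MAP2, NEFL and NEFM, the last with 0 counts in vector and 221 in that library), while SNAP25, TUBB3, RBFOX3 and GFAP were not called. NEFM and GFAP passed only through that library. Calls follow the rule given below, by which 6.42% of all genes past the filter were called higher than vector there. For 9 endothelial genes found of 10 listed the sums were 75.1, 63.0, 133 and 149 CPM, with EGFL7 the most abundant, 1, 1, 2 and 2 genes above 3 counts and VWF, KDR and EMCN at 0 in each library. Blood genes summed to 8.18, 4.26, 15.6 and 22.6 CPM with 3, 3, 3 and 5 of 10 above 3 counts, CD14 leading and PTPRC at 0 in each. In shDCBLD2 against sc, ALDH3A1 (-1.32) and AKR1C1 (-1.17) of the A549 list were called lower, and the list had a median of -0.68. RBFOX3 (-1.66), COL1A2 (-2.68, from 17 counts to 1) and CD14 (-1.06) were called lower there too, and NEFL (1.21) and MTAP (1.53) higher. Of all genes past the filter, 5.62% were called lower and 1.16% higher in that comparison. MTAP passed the filter only through its counts in the library labelled DCBLD2 overexpression. In vector against sc, THY1 (1.39) and RBFOX3 (1.21) were called higher, and MAP2 (-1.01) and COL1A2 (17 counts in sc and 0 in vector) lower. Of all genes past the filter, 2.22% were called higher and 1.89% lower there. The part of these lists in the differences described below, and that of the 9p21 genes, was not tested.

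The guidance genes were expressed over a wide range. On the deposited FPKM scale, which is per kilobase of exon and so allows genes to be compared, the 5 highest means over the 4 libraries belonged to EPHA2 (50.9), a receptor known for its abundance in epithelial cancers, the semaphorin receptor PLXNB2 (41.1), the DCBLD2 partner SEMA4B (30.2), EPHB2 (19.1) and the transmembrane semaphorin SEMA6B (19.0). EPHA2 stayed between 47.4 and 53.2 FPKM. PLXNB2 was at 39.3 FPKM in sc, 28.4 in shDCBLD2, 35.4 in vector, beside 61.4 in the library labelled DCBLD2 overexpression, a spread that did not reach 2-fold within either manipulated pair. SEMA4B was at 25.8, 24.0, 32.3 and 38.9 FPKM in the same order, with log2 ratios of 0.25 in the library labelled DCBLD2 overexpression and -0.07 in shDCBLD2, each against its own control. EPHB2 had 16.5, 24.3, 16.0 and 19.7 FPKM and was highest in shDCBLD2. For SEMA6B the values were 17.6, 13.8, 26.4 and 18.3 FPKM, highest in vector. None of these 5 was called in any comparison. The ranking differs between libraries. In the library labelled DCBLD2 overexpression PLXNB2 stood above EPHA2, and EFNA1 (31.5 FPKM), PLXND1 (24.1) and EPHB4 (20.5) stood above EPHB2 and SEMA6B.

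**Figure D1:**
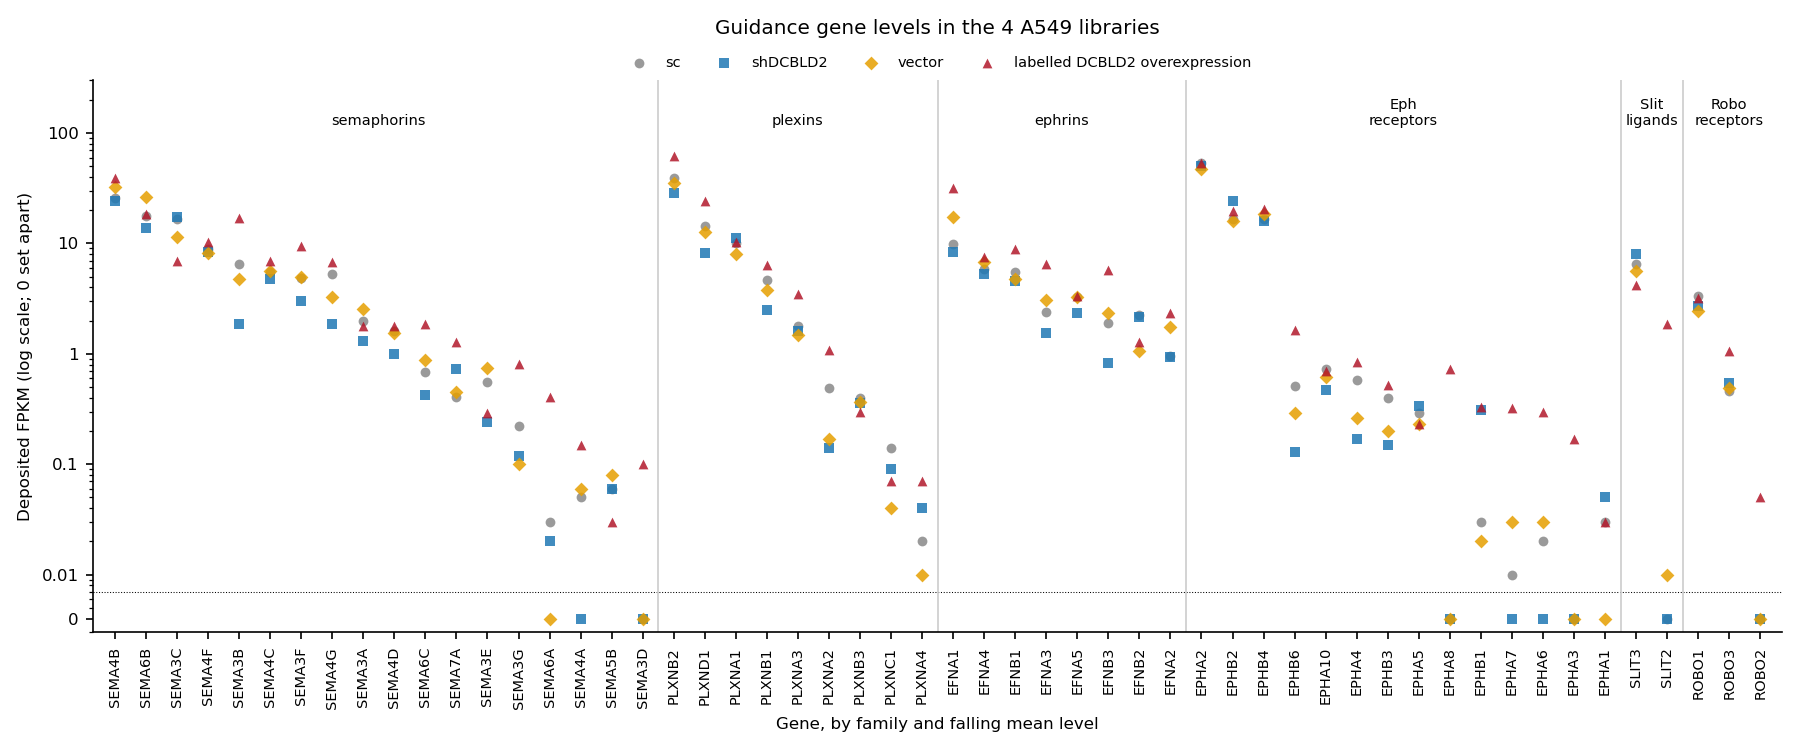
Deposited FPKM (log scale, with 0 set apart at the bottom) of the 54 guidance genes above 3 counts in at least 1 library, by family and falling mean, with 1 marker per library. EPHA2, PLXNB2 and SEMA4B stand highest, and several genes of low level are above 0 mainly in the library labelled DCBLD2 overexpression.

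Detection differed between the libraries. At a floor of 3 counts, 46 of the 59 entries were above it in sc, 46 in shDCBLD2, 46 in vector, beside 52 in the library labelled DCBLD2 overexpression, and 42 were above it in all 4. Over all entries 17591, 17458, 17489 and 17935 were above it, also most in that library. The summed level of the guidance genes was 1810, 1620, 1820 and 2470 CPM in the same order, highest in the library labelled DCBLD2 overexpression. ROBO4, SLIT1, SEMA5A, SEMA6D and the second entry of EFNA3 had 3 counts or fewer in every library. A filter on a mean of at least 1 CPM over the 4 libraries kept 43 entries and left out 16. Besides the 5 just named, the 11 left out were EPHA1, EPHA3, EPHA6, EPHA7, EPHA8, PLXNA4, PLXNC1, ROBO2, SEMA3D, SEMA4A and SEMA5B. EPHB1, SLIT2, SEMA3G and SEMA6A passed only through their counts in the library labelled DCBLD2 overexpression, so 39 passed on the other 3 libraries alone. Counts over the 43 describe the entries that passed and not all 59.

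Both manipulated lines were then compared with their own controls to ask how guidance genes differ when DCBLD2 is altered. Genes with a ratio of 2-fold or more, and an interval that did not include equality, are called higher or lower. In the library labelled DCBLD2 overexpression, where DCBLD2 was itself lower, 16 of the 43 guidance genes were called higher than in vector, beside 6.42% of all 13966 genes that passed the filter. Only SEMA3E was called lower, beside 5.35% of all genes. The median log2 ratio was 0.74 over the 43 and -0.04 over all genes, and 35 of the 43 (81.4%) lay above 0 against 47.1% of all genes. In shDCBLD2 against sc, 8 of the 43 were called lower, beside 5.62% of all genes, and EPHB1 alone was called higher, beside 1.16%. The median there was -0.25 over the guidance genes and 0.01 over all genes.

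Much of the first count came from genes of low abundance. Among the 39 guidance genes that passed on the other 3 libraries, 12 were called higher and 1 lower in the library labelled DCBLD2 overexpression, with a median of 0.37, beside 4.52% and 5.5% of the 13594 genes so filtered and their median of -0.06. With a minimum mean of 5 CPM, 7 of 30 were called higher and 0 lower and the median was 0.33, beside 3.13% and 4.55% of the 10835 genes so filtered and their median of -0.07. In shDCBLD2, 8 of the 39 were called lower and 0 higher, beside 5.08% and 1.1% of the genes so filtered, and the median was -0.25. At 5 CPM, 4 of 30 were called lower there and 0 higher, beside 3.11% and 0.554%, and the median was -0.28.

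The comparison of the library labelled DCBLD2 overexpression with vector and that of shDCBLD2 with sc share no library, although all 4 libraries entered the scaling and the filter. SEMA3B, SEMA4G, PLXNA2, EPHA4, EPHB3, EPHB6 and EFNB3 were called higher in the first and lower in the second. With the control libraries exchanged, 3 of the 7, SEMA3B, EPHB6 and EFNB3, kept both calls. The same count over all genes was not made, so the 3 cannot be set beside a share of all genes. With sc as the control of the library labelled DCBLD2 overexpression, EPHA4 was at 0.57, EPHB3 at 0.38 and SEMA4G at 0.41, below the 2-fold threshold, as was SEMA3E at -0.85, and PLXNA3 no longer met the rule. With vector as the control of shDCBLD2, EPHA4 was at -0.60, EPHB3 at -0.37, PLXNA2 at -0.32 and SEMA4G at -0.82, also below it. With each line's own control, the 7 make up 43.8% of the guidance genes called higher and 87.5% of those called lower. Among all genes, 303 followed this pattern, which are 33.8% of the genes called higher and 38.6% of those called lower. No guidance gene was called lower in the first and higher in the second. Only 34 of all 13966 genes were, so a count of 0 among 43 is no contrast with them. EPHB1 was called higher in both and SEMA3E lower in both. Across the 43 genes, which are not independent replicates, 32 had ratios of opposite sign (74.4% against 60% of all genes). The Spearman correlation of the ratios was -0.29 over the 43 and -0.30 over all genes, and the Pearson correlation 0.01 and -0.32. Over the 39 that passed on the other 3 libraries these were -0.45 and -0.52. They were not computed over all genes so filtered, so they cannot be set beside -0.30 and -0.32. DCBLD2 does not follow this pattern, since it was lower in both manipulated libraries.

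**Figure D2:**
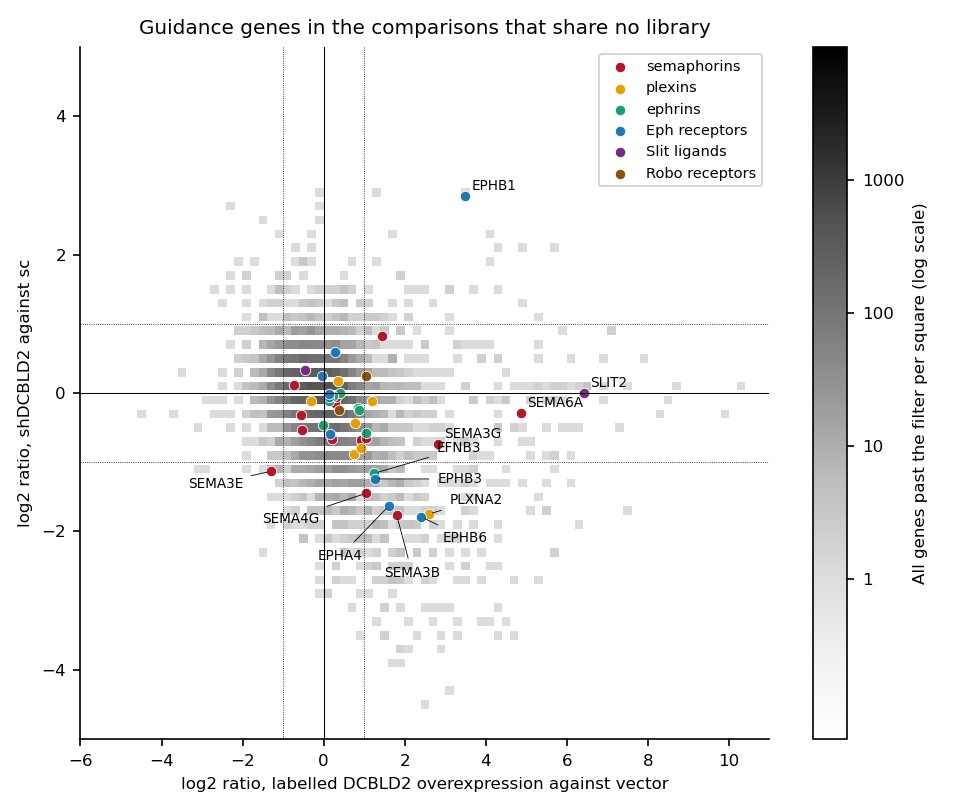
Log2 ratios of the 43 guidance genes past the filter (coloured points, by family) in the library labelled DCBLD2 overexpression against vector (x axis) and in shDCBLD2 against sc (y axis), over the density of all genes past the filter (grey squares, log scale). Dotted lines mark 2-fold; 7 named genes lie at the lower right, of which SEMA3B, EPHB6 and EFNB3 kept both calls with the controls exchanged, EPHB1 at the upper right and SEMA3E at the lower left.

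Promoters of 5 of these 7 genes are shown because they were called in opposite directions in the 2 comparisons. RefSeq windows on GRCh38.p14, running from 250 bases before to 50 after an annotated start, were found for 53 of the 58 symbols, 84 windows in all, and for 6 of the 7 genes. Both strands were searched for the TCF/LEF motif CTTTGAT, the AP-1 motif TGANTCA, the E-box CAGGTG and the GC box GGGCGG. EPHB3, EPHB6 and PLXNA2 have a single window, SEMA3B is shown at the farthest upstream of its 5 windows, and SEMA4G at the 1 of its 2 that holds a TCF/LEF match, picked for that match. The other SEMA4G window holds 2 GC boxes and no TCF/LEF match. EPHA4 is not printed, and its 2 windows hold 5 and 1 GC boxes and none of the other motifs. No window was found for EFNB3. Each window is written 5′ to 3′ on the gene's own strand with the motif matches in capitals. EPHB3 lies at chr3:184561535-184561834 on the plus strand, EPHB6 at chr7:142862506-142862805 on the plus strand, PLXNA2 at chr1:208244335-208244634 on the minus strand, SEMA3B at chr3:50259976-50260275 on the plus strand and SEMA4G at chr10:100972279-100972578 on the plus strand.
EPHB3: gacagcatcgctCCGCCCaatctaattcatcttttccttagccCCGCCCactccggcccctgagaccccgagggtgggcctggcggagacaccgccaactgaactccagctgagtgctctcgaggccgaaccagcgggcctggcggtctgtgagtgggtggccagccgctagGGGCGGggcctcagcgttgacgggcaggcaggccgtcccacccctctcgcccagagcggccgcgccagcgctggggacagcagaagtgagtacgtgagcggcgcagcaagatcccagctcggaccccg
EPHB6: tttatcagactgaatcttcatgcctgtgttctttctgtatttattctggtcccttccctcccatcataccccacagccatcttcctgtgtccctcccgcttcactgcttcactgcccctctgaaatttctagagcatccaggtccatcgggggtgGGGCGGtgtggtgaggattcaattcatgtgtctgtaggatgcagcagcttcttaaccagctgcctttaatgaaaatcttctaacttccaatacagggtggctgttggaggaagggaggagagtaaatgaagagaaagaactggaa
PLXNA2: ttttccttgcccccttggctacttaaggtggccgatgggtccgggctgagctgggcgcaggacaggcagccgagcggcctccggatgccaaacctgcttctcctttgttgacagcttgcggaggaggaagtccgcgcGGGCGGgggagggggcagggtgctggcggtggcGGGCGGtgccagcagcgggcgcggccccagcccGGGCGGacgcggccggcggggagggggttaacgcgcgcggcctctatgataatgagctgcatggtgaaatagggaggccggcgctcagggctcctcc
SEMA3B: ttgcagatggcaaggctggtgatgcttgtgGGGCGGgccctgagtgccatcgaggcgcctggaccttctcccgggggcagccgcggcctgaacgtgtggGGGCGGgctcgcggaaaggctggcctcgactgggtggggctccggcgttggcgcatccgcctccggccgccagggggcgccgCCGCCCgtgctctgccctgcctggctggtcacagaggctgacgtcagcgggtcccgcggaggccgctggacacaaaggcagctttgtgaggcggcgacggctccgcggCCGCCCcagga
SEMA4G: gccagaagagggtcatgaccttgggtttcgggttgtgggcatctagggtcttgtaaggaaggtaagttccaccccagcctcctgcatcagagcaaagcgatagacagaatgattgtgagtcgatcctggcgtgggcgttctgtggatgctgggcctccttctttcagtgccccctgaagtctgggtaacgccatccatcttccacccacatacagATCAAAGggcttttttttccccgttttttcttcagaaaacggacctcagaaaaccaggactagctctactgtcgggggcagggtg
The capitals are GC boxes in the first 4 windows (3, 1, 3 and 4 matches) and the TCF/LEF match, as its reverse complement ATCAAAG, in SEMA4G. GC boxes were in 62 of the 84 guidance gene windows (73.8%) and in 45% of the 35116 windows of all genes. The TCF/LEF motif was in 3 windows (3.57%, against 2.62% of all), the AP-1 motif in 1 (1.19%, against 7.71%) and the E-box in 17 (20.2%, against 20.6%). Of the 12 windows of the 6 genes, 9 held a GC box (at least 1 window of each gene), 1 the TCF/LEF motif, 1 the E-box and 0 the AP-1 motif. A match describes the letters of a window and not a bound site.

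Among the secreted semaphorins, the well counted SEMA3B was called in both comparisons. SEMA3B, a class 3 semaphorin, had 723 counts in sc, 233 in shDCBLD2, 514 in vector, beside 1613 in the library labelled DCBLD2 overexpression. It was lowest in the knockdown and highest in the library labelled for overexpression, with log2 ratios of 1.80 (1.66 to 1.95) against vector and -1.76 (-1.99 to -1.56) for shDCBLD2 against sc. SEMA3F, its relative in the same chromosomal segment, had 452, 311, 449 and 759 counts in the same order of libraries. It was likewise lowest in shDCBLD2 and highest in the library labelled DCBLD2 overexpression, without reaching 2-fold, at 0.91 (0.74 to 1.08) and -0.68 (-0.89 to -0.47). Of the entries between them in the deposited coordinates, GNAI2, which encodes a G protein subunit, had ratios of 0.37 and 0.32, and U73166.2, a poorly counted entry, had 0.92 (0.19 to 1.80) and -0.24 (-1.12 to 0.60), the signs of SEMA3F and SEMA3B. Both were called in neither comparison. SEMA3E, a ligand that binds PLXND1 without a neuropilin, went the other way in the library labelled DCBLD2 overexpression. Its counts were 72 in sc, 35 in shDCBLD2, 93 in vector and 33 in that library, so it was lower in both manipulated libraries, at -1.13 (-1.81 to -0.58) in shDCBLD2 and -1.30 (-1.96 to -0.75) in the other. SEMA3G, a secreted semaphorin, had 21, 13, 9 and 67 counts and a ratio of 2.81 (2.04 to 4.24) in the library labelled DCBLD2 overexpression. SEMA3A and SEMA3C, the further class 3 members that passed the filter, were not called, and SEMA3C had ratios of -0.74 there and 0.12 in shDCBLD2.

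Membrane-bound semaphorins were called as well. SEMA4G, a transmembrane class 4 member, had 530 counts in sc, 212 in shDCBLD2, 320 in vector, beside 595 in the library labelled DCBLD2 overexpression, with ratios of 1.04 (0.85 to 1.25) and -1.45 (-1.70 to -1.23) in the overexpression and knockdown comparisons. Its entry overlaps MRPL43, and since the strand setting of the counting is not given, reads of the pair cannot be told apart. SEMA6C had 75, 52, 95 and 177 counts and was called higher in the library labelled DCBLD2 overexpression alone, at 1.04 (0.68 to 1.43). SEMA7A, the GPI-anchored ligand of PLXNC1, had 34, 68, 36 and 91 counts and so was higher in both manipulated libraries, at 1.44 (0.92 to 2.09) in the library labelled DCBLD2 overexpression and 0.82 in shDCBLD2, the second short of 2-fold. SEMA6A, a ligand of PLXNA2, had 6, 5, 1 and 75 counts, and its ratio against the single count in vector was 4.86 with a wide interval (3.86 to 11.70). In all, 15 of the 20 semaphorins passed the filter, 6 were called higher and 1 lower in the library labelled DCBLD2 overexpression, beside 6.42% and 5.35% of all genes, and 3 were called lower in shDCBLD2, beside 5.62%. Of the 6, SEMA3G and SEMA6A passed the filter only through that library.

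Among the plexins, the semaphorin receptors, PLXNA2 differed most. It had 130 counts in sc, 41 in shDCBLD2, 44 in vector, beside 247 in the library labelled DCBLD2 overexpression. The ratios were 2.59 (2.17 to 3.14) against vector and -1.75 (-2.35 to -1.29) for shDCBLD2 against sc. The 2 controls themselves differed at this gene, at -1.43 for vector against sc, and shDCBLD2 and vector had nearly the same count. PLXNA3, which pairs with neuropilins as a receptor of SEMA3F, had 258, 264, 210 and 437 counts and was called higher in the library labelled DCBLD2 overexpression, at 1.20 (0.97 to 1.45). PLXND1, the SEMA3E receptor, was far better counted, with 2678, 1700, 2291 and 3901 counts. Its ratios of 0.92 (0.85 to 1.00) and -0.80 (-0.89 to -0.71) had the same signs as those of PLXNA2 and stopped short of 2-fold. PLXNB1 was at 0.74 and -0.88 and PLXNB2 at 0.78 and -0.44, again uncalled. Of the 9 plexins 7 passed the filter, with a median of 0.78 in the library labelled DCBLD2 overexpression and -0.44 in shDCBLD2, beside -0.04 and 0.01 over all genes.

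The neuropilins, co-receptors of the class 3 semaphorins, were called in neither comparison. NRP1 had 5015 counts in sc, 5275 in shDCBLD2, 3760 in vector, beside 2535 in the library labelled DCBLD2 overexpression, and NRP2 had 3089, 4546, 2553 and 1631. Their log2 ratios were -0.42 and -0.49 in the library labelled DCBLD2 overexpression and -0.07 and 0.42 in shDCBLD2, all within 2-fold. Both neuropilins were lowest in the library in which SEMA3B and PLXNA2 were highest, and SEMA3A and SEMA3C were below vector there as well, at -0.53 and -0.74. SEMA3A was also lower in shDCBLD2 than in sc, at -0.54 (-0.77 to -0.31). Its vector level stood above sc by 0.44, and its 16.9 CPM in the library labelled DCBLD2 overexpression was close to 18 CPM in sc. A further co-receptor, L1CAM, which joins NRP1 in the SEMA3A receptor, had 219, 194, 87 and 217 counts and the same signs as SEMA3B, at 1.45 (1.11 to 1.85) and -0.31 (-0.60 to -0.03). It was called in the first alone, and that call rests on the low count in vector, which was also called lower than sc at -1.22.

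Of the 9 Eph receptors that passed the filter, 4 were called higher in the library labelled DCBLD2 overexpression, beside 6.42% of all genes. EPHB1, 1 of the 4, passed the filter only through that library. Of the same 4, 1 was called higher and 3 lower in the knockdown comparison, beside 1.16% and 5.62%. EPHA2, EPHB2 and EPHB4, all well counted in every library, had ratios between -0.05 and 0.59 in the overexpression and knockdown comparisons. The scarcer EPHA5 (-0.03 and 0.24) and EPHA10 (0.15 and -0.59) were likewise called in neither. EPHB6, a receptor without kinase activity, had 52 counts in sc, 15 in shDCBLD2, 29 in vector, beside 146 in the library labelled DCBLD2 overexpression, with ratios of 2.41 (1.90 to 3.11) and -1.79 (-2.87 to -1.08). EPHA4, which binds ephrins of both classes, had 83, 28, 37 and 105 counts. Its ratios were 1.61 (1.10 to 2.24) and -1.63 (-2.38 to -1.08), and vector was also lower than sc at -1.04 (-1.67 to -0.50). EPHB3, a receptor of the ephrin-B ligands, had 35, 15, 17 and 39 counts, at 1.26 (0.50 to 2.27) and -1.24 (-2.34 to -0.45), and its entry overlaps EIF2B5. The highest count of EPHB3 in either manipulated library was close to that of sc. Its call in the library labelled DCBLD2 overexpression therefore rests on the low count in vector. EPHB1, a further ephrin-B receptor, had 4, 46, 2 and 38 counts: it was near the floor in both controls and above it in both manipulated libraries, at 3.49 (2.45 to 7.50) and 2.85 (1.93 to 5.32).

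Of their ephrin ligands, 8 entries passed the filter, and 2 were called higher in the library labelled DCBLD2 overexpression and 1 lower in shDCBLD2, beside 6.42% and 5.62% of all genes. EFNB3, a transmembrane ephrin, had 118 counts in sc, 57 in shDCBLD2, 141 in vector, beside 305 in the library labelled DCBLD2 overexpression, with ratios of 1.25 (0.97 to 1.56) and -1.16 (-1.67 to -0.72). It was the only ephrin called in both. EFNA3, a GPI-anchored ephrin, had 96, 70, 120 and 225 counts and was called higher in the library labelled DCBLD2 overexpression at 1.05 (0.73 to 1.39), with an entry that overlaps EFNA4. EFNA1, the best counted ephrin and a ligand of EPHA2, had 481, 454, 819 and 1328 counts. Its ratio was 0.85 against vector, but vector already stood above sc by 0.86. EFNB2, the ligand of EPHB4, had 192, 206, 89 and 94 counts, so both libraries of the vector pair were lower than both of the hairpin pair, and neither manipulated library differed from its own control by 2-fold.

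Slits and Robos held the largest single ratio. SLIT2, a secreted ligand of ROBO1 and ROBO2, had 0 counts in sc, 0 in shDCBLD2, 2 in vector, beside 302 in the library labelled DCBLD2 overexpression. Its log2 ratio against vector was 6.42, with a counting interval from 5.53 to 10.44, and rests on 2 counts in vector: it was 7.08 with a prior count of 0.5 and 5.64 with 5. SLIT3, its paralogue, had 1767, 2469, 1504 and 989 counts and was lowest in that library at -0.45 (-0.57 to -0.33). ROBO1, the main Robo receptor here, had 690, 640, 497 and 578 counts and was not called, while ROBO3, a divergent family member, had 62, 81, 65 and 123 counts and was called higher at 1.05 (0.63 to 1.53).

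**Figure D3:**
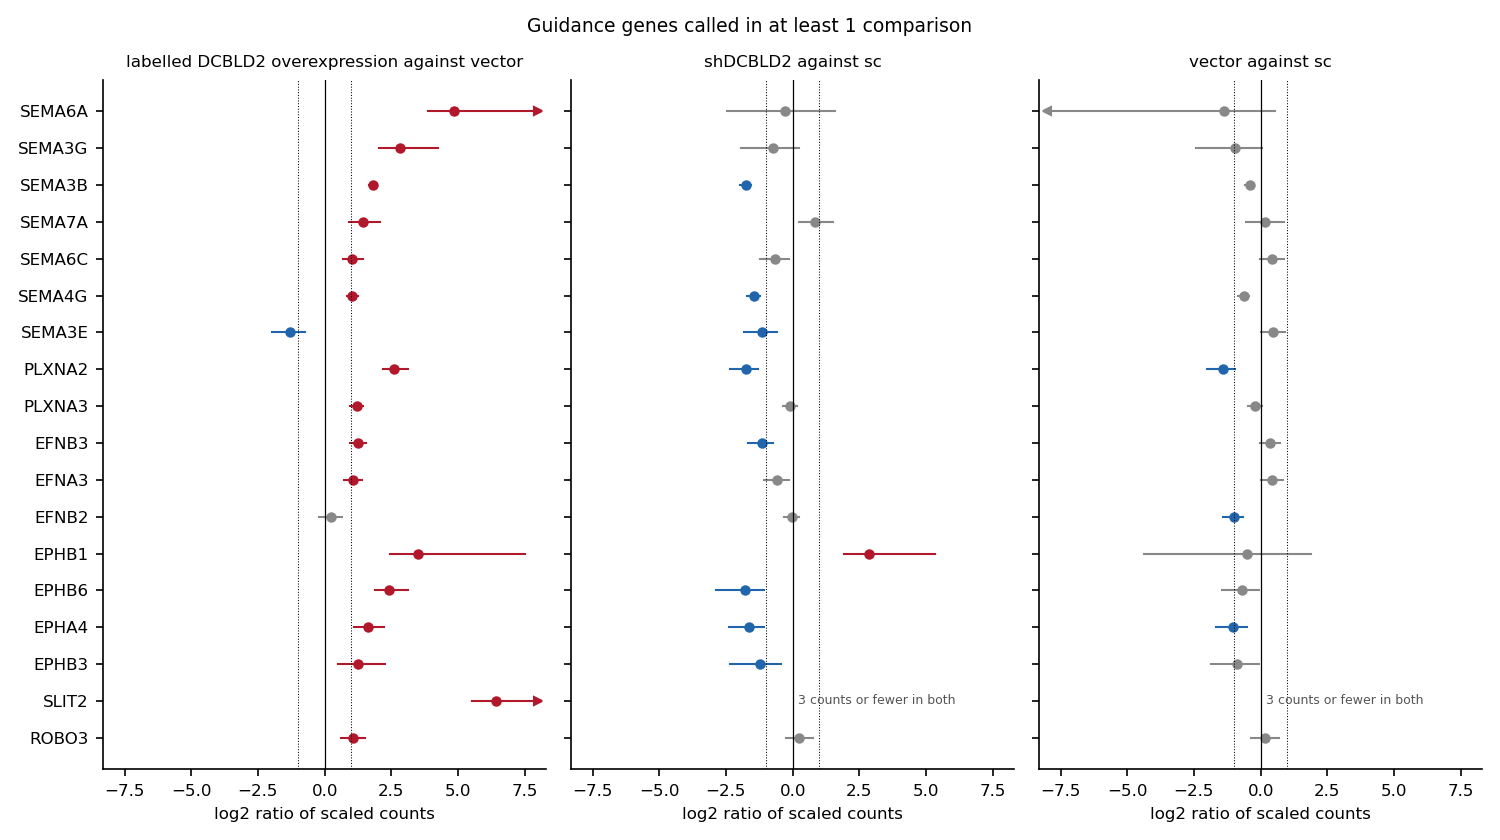
Log2 ratios with 95% counting intervals of the 18 guidance genes called in at least 1 comparison, in the library labelled DCBLD2 overexpression against vector (left), shDCBLD2 against sc (middle) and vector against sc (right). Red marks calls of higher, blue calls of lower, grey neither, dotted lines 2-fold and arrowheads intervals that run off the axis; SEMA3B lies at 1.80 on the left and -1.76 in the middle.

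SLIT2 belonged to a group of guidance genes seen almost only in the library labelled DCBLD2 overexpression. EPHA8 had 65 counts there and 0 in each other library, which makes it at least 24.1-fold higher than in vector when vector is set at the floor of 3 counts. EPHA3 had 19 counts, ROBO2 15 and SEMA3D 14, again with 0 in the other 3, so they were at least 7.04-fold, 5.56-fold and 5.19-fold higher than in vector. These bounds set vector at the floor and leave out the counting error of the counts themselves. EPHA7 had 2, 0, 4 and 39 counts and EPHA6 had 2, 0, 4 and 31 in sc, shDCBLD2, vector and that library. They share the axon guidance background given above for all the families, which is not particular to these genes. SLIT2, EPHA8, EPHA3, ROBO2 and SEMA3D had at least 10 counts in that library with 3 or fewer elsewhere, 5 of the 59 members beside 301 of all 57905 entries. No guidance gene had this pattern for sc, shDCBLD2 or vector, where 11, 32 and 9 of all entries had it. They appeared in the library in which CDKN2A had 2104 counts. Other members near the floor were not highest there, such as SEMA5B with 7, 8, 9 and 3 counts and EPHA1 with 3, 5, 0 and 2. Whether the genes seen in that library share a source was not tested.

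**Figure D4:**
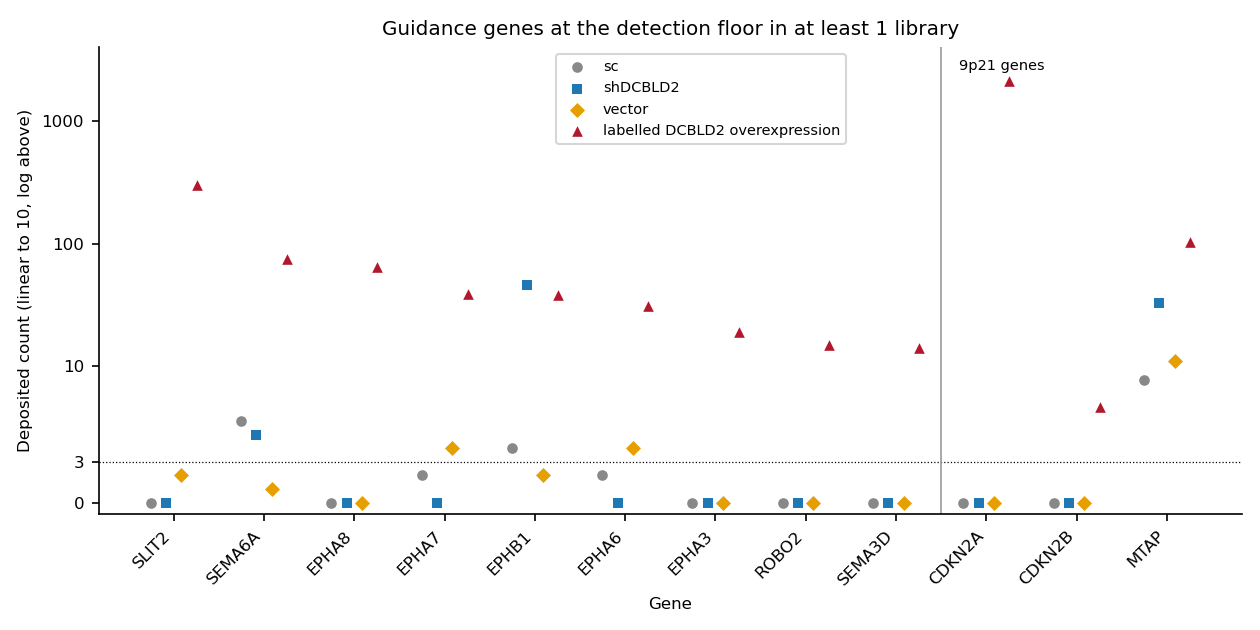
Deposited counts (linear to 10, log above) in each library of 9 guidance genes with 3 counts or fewer (dotted line) in at least 1 library and at least 20 in another, or at least 10 in the library labelled DCBLD2 overexpression alone, beside the 9p21 genes CDKN2A, CDKN2B and MTAP. Only the second part of the rule is tied to the library labelled DCBLD2 overexpression. Among the 9 genes, EPHB1 had more counts in shDCBLD2 (46) than in that library (38).

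The controls were compared with each other as a yardstick. The study's methods describe different vectors and selection markers for overexpression and knockdown, so the controls may differ in construct and drug too. With 1 library each, such a difference cannot be told apart from one between libraries. The same limit holds where a line was compared with the other line's control. In vector against sc, 0 of the 43 guidance genes were called higher, beside 2.22% of all genes, and 3 were called lower, beside 1.89%. These were PLXNA2 and EPHA4, described above, and EFNB2, which sat at the 2-fold threshold with an interval from -1.40 to -0.65. With a prior count of 5, EPHA4 and EFNB2 were both at -0.98 and lost their calls, and PLXNA2 kept its own. The median was -0.09 over the guidance genes and -0.01 over all genes. This comparison shares a library with each of the others, so its values stand beside theirs and no overlap is given.

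Other genes of the guidance pathways, 55 by a list of co-receptors, netrin, RGM and FLRT families and intracellular effectors, were read beside the families. UNC5A and RGMA passed the filter only through the library labelled DCBLD2 overexpression, where both were called higher. Of the 49 that passed, 11 were called higher and 2 lower in the library labelled DCBLD2 overexpression, beside 6.42% and 5.35% of all genes. In shDCBLD2, 0 were called higher and 8 lower, beside 1.16% and 5.62%, and in vector against sc 1 higher and 2 lower, beside 2.22% and 1.89%. The medians were 0.20, -0.11 and -0.18, beside -0.04, 0.01 and -0.01 over all genes. The netrin and RGM axis gave the largest ratios: UNC5B, a netrin receptor, had 27 counts in sc, 18 in shDCBLD2, 22 in vector, beside 673 in the library labelled DCBLD2 overexpression. RGMA, a ligand of neogenin, had 5, 1, 3 and 321 counts, and NTN1, netrin-1 itself, had 38, 20, 18 and 298. All 3 were high in that library alone. The neogenin gene NEO1 had ratios of 0.20 and -0.50 and was not called. FLRT3, a membrane protein that binds UNC5 receptors and Robo1, was called in opposite directions in the overexpression and knockdown comparisons, with 154, 36, 88 and 177 counts at 1.14 and -2.17. So were UNC5A at 1.81 and -1.24, DSCAML1 at 1.19 and -1.93, and 1 more listed gene whose values are not reported. With the controls exchanged, DSCAML1 kept both calls at 1.66 and -2.41, while FLRT3 was at 0.44 in the library labelled DCBLD2 overexpression and UNC5A at -0.45 in shDCBLD2, below the threshold. L1CAM (0.23), DPYSL3 (-0.68), SRGAP3 (0.99), TIAM1 (0.81) and UNC5D (-0.91) also lost their calls with the other control. The gene without reported values kept its call in the library labelled DCBLD2 overexpression and lost that in shDCBLD2. L1CAM, described above, was among the genes called higher in the library labelled DCBLD2 overexpression, and so was the Src family kinase FYN at 1.96. SRGAP3, a Slit-Robo GTPase-activating protein, was at 1.45 and the exchange factor TIAM1 at 1.05. DPYSL3, a collapsin response mediator, and FLRT2 were the 2 called lower there, at -1.12 and -1.57. In shDCBLD2 the exchange factor VAV3 had the lowest ratio of the list, -2.21, with 179 counts in sc and 41 in shDCBLD2. Also called lower were NTN5 at -1.56, NTNG2 at -1.09 and the netrin receptor UNC5D at -1.61. In vector against sc, FYN was called higher at 1.07, and L1CAM and VAV3 lower at -1.22 and -1.12.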

How the data were processed

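RNA was sequenced from 4 libraries labelled as A549 cells, 1 per condition, after poly(A) selection according to the labels. The table the authors deposited gives a raw count and an FPKM value for each of 57905 entries, and the deposited FPKM could be recomputed from the count, the exonic length and the library total. The files of single samples repeat the table's columns. Aligner, counting program, annotation and strand setting are not given in the sources used here, and the genome build listed in the submitters' processing notes is a mouse build although identifiers and symbols are human, so no deposited coordinate is printed. Overlaps were read from the deposited coordinates alone.

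For scaling, TMM factors were computed in edgeR 4.0.16 (R 4.3.3). A prior count of 2, scaled to each library, entered the log2 ratios. The 95% interval of a ratio is the exact Clopper-Pearson interval for the share that 1 library has of both counts, without the prior count. The remaining work ran on scipy 1.17.1, numpy 2.4.6 and pandas 2.3.3 under Python 3.11.15, with plots drawn in matplotlib 3.10.9. Genes with a mean of at least 1 CPM over the 4 libraries (13966) entered the summaries. The call rule needs a 2-fold ratio and an interval that excludes no change. No p-value is given. The steps were tested on simulated data. Alternatives were DESeq2 1.42.0 size factors, library totals alone, prior counts of 0.5 and 5, no filter or 5 CPM, a 1.5-fold threshold, the other control library, members without overlapping entries and 2 settings added later.

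Named genes are DCBLD2, each guidance gene called in at least 1 comparison, the 5 with the highest mean FPKM, those with 3 counts or fewer in 1 library and at least 20 in another, SEMA4B, NRP1, NRP2 and the listed pathway genes called in at least 1 comparison. Any other gene was named after its values were seen, and so were the promoter window of SEMA4G and the choice of the printed promoters. Members and lists were chosen with earlier results of these data known. A symbol on several entries was read from the one with the most counts for the pathway and marker lists. PECAM1 was not found among the symbols. The values of 1 listed pathway gene, which is in the counts of that list, are not reported. Promoters are from RefSeq on GRCh38.p14.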

Additional observations from a re-analysis of the deposited data

How the results depend on the processing

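With 1 library per condition, no setting measures biological spread, and counts under about 50 leave wide intervals. No paired analysis was possible because each condition has 1 library. For the library labelled DCBLD2 overexpression against vector, the median of the guidance genes moved from 0.74 to 0.88 with no filter, 0.33 at 5 CPM, 0.88 without overlapping members and 0.50 with sc as control. The number called higher went from 16 to 7 at 5 CPM (30 genes, beside 3.13% of all genes so filtered) and 9 without overlapping members (19 genes, beside 8.15%). The number called lower went from 1 to 0 in both, beside 4.55% and 5.31%, and to 2 at 1.5-fold, beside 17.8%. For the settings chosen after seeing the data, the median was 0.57 without SLIT2, the member past the filter that had 3 counts or fewer in the other libraries, and 0.37 when the filter used the other 3 libraries. For shDCBLD2 against sc, the number called higher went from 1 to 0 at 5 CPM, without overlapping members and with the filter on the other 3 libraries, beside 0.554%, 1.35% and 1.1% of all genes, and to 3 at 1.5-fold, beside 4.93%. Its median went from -0.25 to -0.12 with no filter and to -0.37 with vector as control. The number called lower went from 8 to 4 at 5 CPM, 4 without overlapping members and 14 at 1.5-fold, beside 3.11%, 6.55% and 11.6%. For vector against sc, the median went from -0.09 to -0.15 with library totals alone, 0.00 with no filter and -0.15 without overlapping members. The number called higher went from 0 to 3 at 1.5-fold, beside 7.07%. The number called lower went from 3 to 6 at 1.5-fold, beside 6.67%, and to 1 with a prior count of 5, for which no share of all genes was computed. Fewer genes or another threshold enter by construction in the filter, overlap and fold settings; for the others the cause was not tested. Of the single genes called, 5 of 17 no longer met the call rule in the overexpression comparison with sc as control, 4 of 9 in the knockdown comparison with vector as control, and 2 of 3 in vector against sc with a prior count of 5. Their ratios are the same by construction under the filter, fold, overlap and member settings. Without SLIT2, which had 3 counts or fewer in both libraries, the median of shDCBLD2 against sc was -0.27.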
